A study of Mus musculus with 6 samples.

Results

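The heat shock chaperones described here are 10 genes taken by symbol: Hspa1a, Hspa1b, Hsph1, Dnajb1, Hspa8, Hsp90aa1, Hspb1, Hspa5, Hspd1 and Hspe1. They are 10 of 37620 gene identifiers counted in each library, and 10 of 10 passed the filter on low counts, which left 16432 genes for testing. Total RNA of the hippocampus of C57BL/6 mice aged 13 weeks was sequenced from 3 wildtype mice and 3 mice labelled miR17-92 knockout, with no litter giving more than 1 mouse. The labels name no further allele and no agent, and they do not say which bases were deleted, in which cells, or with which Cre line. The question asked of each gene was how far its level varied among mice of 1 genotype, set beside the difference between genotypes.

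Heat shock proteins are chaperones that bind unfolded or aggregating proteins and help them fold, or hold them until they can. Under heat or other stress the transcription factor HSF1 binds repeats of the bases GAA in the promoters of the inducible members and raises their transcription within minutes, while a separate pathway, the unfolded protein response, raises those of the endoplasmic reticulum. Some members, such as Hspa8, serve unstressed cells as well, and in neurons Hspa8 also strips the clathrin coat from endocytosed synaptic vesicles.

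The miR-17-92 cluster is a run of microRNAs cut from a shared transcript. Their mature sequences (RefSeq, GRCm38.p6, chromosome 14, plus strand) are shown because each pairs with its targets through its seed, bases 2 to 8, given in capitals.
mmu-miR-17-5p: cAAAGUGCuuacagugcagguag
mmu-miR-20a-5p: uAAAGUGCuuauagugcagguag
mmu-miR-18a-5p: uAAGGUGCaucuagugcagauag
mmu-miR-19a-3p: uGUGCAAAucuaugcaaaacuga
mmu-miR-19b-3p: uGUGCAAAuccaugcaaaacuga
mmu-miR-92a-3p: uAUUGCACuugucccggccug
The members' longest 3' UTRs (GENCODE M21) were searched for the 7 bases that pair with each seed, on the transcript strand. No member held GCACTTT, the site of miR-17-5p and miR-20a-5p, which 14.4% of the 14518 tested genes with a 3' UTR held. None held GCACCTT, the site of miR-18a-5p (9.29% of those genes), or GTGCAAT, the site of miR-92a-3p (7.58%). TTTGCAC, the site of miR-19a-3p and miR-19b-3p, lay in 2 of 10 members against 13.1% of genes, and these matches are shown with 8 bases on either side.
Hspa1b: acagactcTTTGCACttgatagc
Dnajb1: ttttggatTTTGCACagtcctag
The first begins at base 44 of the 3' UTR of Hspa1b and the second at base 768 of that of Dnajb1. The 3' UTRs searched ran from 83 bases (Hspa8) to 1834 bases (Dnajb1). The shares over all genes were not matched to the members by 3' UTR length, so the counts are a description only. A match is a description of the letters and not a measured site.

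Gene counts per library were 40100762, 43588323 and 31731263 in wildtype 1, 2 and 3, and 32284831, 26439693 and 57246827 in knockout 1, 2 and 3, so that knockout 3 was the deepest library and knockout 2 the shallowest. Levels are given as CPM, reads scaled to a fixed library total, with library sizes adjusted by TMM, the trimmed-mean scaling of edgeR. Markers of dentate granule cells, the principal neurons of the dentate gyrus of the hippocampus, were read in every library, with Prox1 between 167 and 189 CPM. The host transcript of the cluster, Mir17hg (ENSMUSG00000089726), held 43, 47 and 36 reads in wildtype and 30, 35 and 37 in knockout, a log2 fold of -0.22 (SE 0.28, adjusted p = 0.813 with edgeR's quasi-likelihood test). It was low in every library and does not check the labels.

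None of the 10 chaperone genes passed the test between genotypes. With edgeR's quasi-likelihood test 0 of 10 had an adjusted p under 0.05, where 0 of all 16432 genes (0%) did, and 0 of 10 had an unadjusted p under 0.05, where 10.6% of all genes did. DESeq2 called 0 of the 9 members it gave an adjusted p (all but Hspb1) against 0.992% of all genes, and limma-voom 0 of 10 against 0%. Wildtype and knockout mice overlapped in 10 of 10 members, while they did not overlap in 16.6% of all genes (8.29% higher and 8.34% lower in knockout). Log2 folds of knockout over wildtype were positive for 6 members and negative for 4, with a median of 0.11, and the median over all genes was 0.00. In 9 of 10, all but Hspa8, knockout 3 was the highest of the 6 mice, which it was in 17.6% of all genes tested. In a whole tissue, fewer cells of a type and less RNA per cell cannot be told apart.

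**Figure D1:**
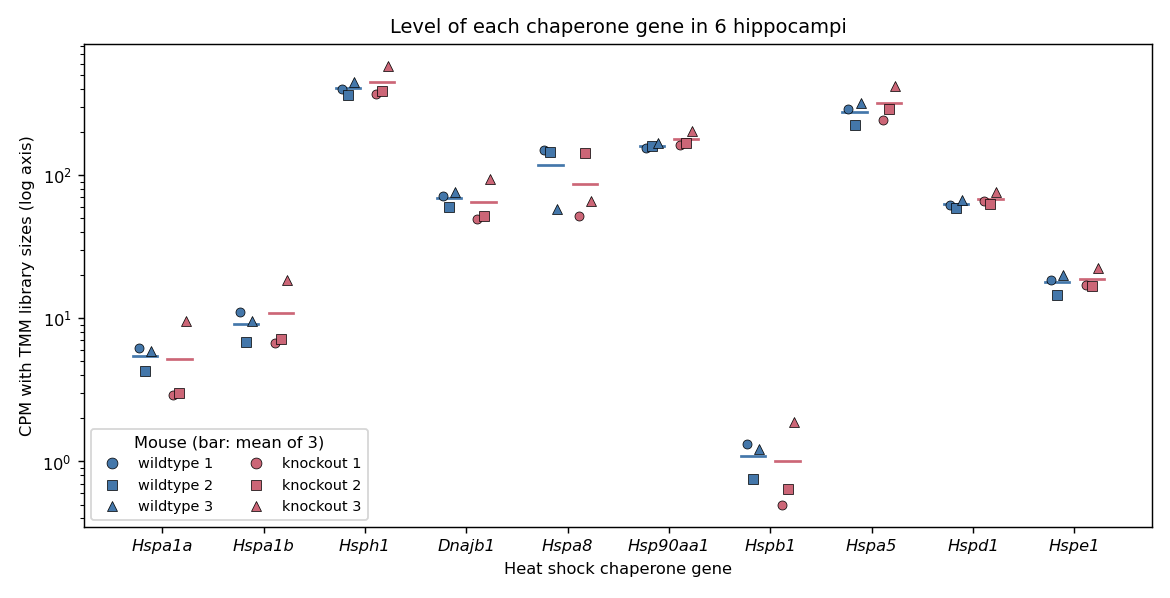
Level of each of the 10 chaperone genes in each mouse, in CPM on a log axis (points: mice, with 1 shape per replicate number; bars: mean of the 3 mice of a genotype). Knockout 3 is the highest point of every gene but Hspa8, and wildtype and knockout points overlap for all 10 genes.

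Hspa1a (ENSMUSG00000091971) and Hspa1b (ENSMUSG00000090877) are near-identical genes on chromosome 17 that encode the stress-inducible cytosolic HSP70. Hspa1a measured 6.23, 4.25 and 5.90 CPM in wildtype 1, 2 and 3, and 2.92, 3.00 and 9.62 CPM in knockout 1, 2 and 3. Knockout 1 and knockout 2 were below every wildtype mouse and knockout 3 was above every one. Wildtype mice averaged 5.46 ± 1.06 CPM and knockout mice 5.18 ± 3.85 CPM (SD, n = 3), which gave a log2 fold of -0.02 (SE 0.42, 95% interval -0.97 to 0.93, edgeR adjusted p = 0.990). Hspa1b measured 11.1, 6.83 and 9.57 CPM in wildtype and 6.75, 7.21 and 18.4 CPM in knockout. Its knockout 3 value was 2.01 times the wildtype mean, and knockout 1 lay just below the lowest wildtype mouse. Its mean was 9.17 ± 2.16 against 10.8 ± 6.62 CPM (SD, n = 3), a log2 fold of 0.27 (SE 0.36, 95% interval -0.55 to 1.09, adjusted p = 0.822).

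Behind the Hspa1a values stood 250, 186 and 188 reads in wildtype and 94, 79 and 549 in knockout, so that the 79 reads of knockout 2 carry a counting error of 11.3%. The transcripts of Hspa1a and Hspa1b align at 99.2% identity over 2201 bases. Reads placed at several sites were left out, so both genes may be read too low and each value alone is uncertain. A predicted gene on the opposite strand overlaps Hspa1a by 2225 bases and held at most 3 reads. Whether counting used the strand is not given, so reads that fit both of these genes cannot be followed. Counted as 1 gene, the pair had a log2 fold of 0.16 (SE 0.38, adjusted p = 0.908). Reads that aligned to several sites made up 20.2% to 22.6% of each library's table, and 21.6% in knockout 3.

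Promoters of the pair and of other members are shown as a description of their letters. Although 9 of 10 members were highest in the same mouse, whether promoter letters had a part in that was not tested. RefSeq windows (GRCm38.p6, 250 bases before to 50 after a start) were matched for 8 of 10 members. Hspa8 and Hsp90aa1 had no window, so their promoters were not searched. The letters GAANNTTC or TTCNNGAA, 2 facing repeats of the heat shock element, were searched on both strands and lay in 6 of 8 members, against 15.1% of all 32851 windows and 16.97% of the 27025 genes with a window. These 6 are not separate elements. Hspa1a and Hspa1b have near-identical windows, and Hspd1 and Hspe1 were matched through the same letters in a shared stretch. Dnajb1 and Hspa5, the remaining members with a window, held no such letters. Both were also highest in the mouse that was highest for 9 of 10 members. The 250 bases before the start are printed 5′ to 3′ on the gene's strand, with matches in capitals. Hspa1a lies at chr17:34972157-34972406 (minus strand) and Hspa1b at chr17:34959239-34959488 (minus strand).
Hspa1a: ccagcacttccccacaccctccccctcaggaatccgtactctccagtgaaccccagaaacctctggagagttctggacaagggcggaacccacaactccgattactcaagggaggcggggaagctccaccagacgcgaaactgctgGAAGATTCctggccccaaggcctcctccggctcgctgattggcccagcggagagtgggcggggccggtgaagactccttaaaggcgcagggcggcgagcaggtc
Hspa1b: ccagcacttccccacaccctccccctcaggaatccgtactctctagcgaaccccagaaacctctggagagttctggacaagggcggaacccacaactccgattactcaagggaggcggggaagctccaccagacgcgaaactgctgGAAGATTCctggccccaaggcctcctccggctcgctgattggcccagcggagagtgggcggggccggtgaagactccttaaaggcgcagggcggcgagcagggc
These windows of Hspa1a and Hspa1b had 296 of 300 bases in common, and the match began 104 bases before the start in both.

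Hsph1 (ENSMUSG00000029657) encodes HSP110, which exchanges the nucleotide of HSP70 so that the client is released. It measured 402, 365 and 446 CPM in wildtype and 366, 388 and 579 CPM in knockout. Knockout 3 was above all other mice, and knockout 1 and 2 lay within the wildtype range. The mean was 404 ± 40.9 against 444 ± 117 CPM (SD, n = 3), a log2 fold of 0.14 (SE 0.16, 95% interval -0.22 to 0.49, edgeR adjusted p = 0.786). Dnajb1 (ENSMUSG00000005483) encodes HSP40, the J-domain partner that loads clients on HSP70. It measured 71.8, 59.4 and 75.8 CPM in wildtype and 49.7, 51.7 and 94.4 CPM in knockout. As in Hspa1a, knockout 1 and 2 were below all wildtype mice and knockout 3 above all of them. The mean was 69.0 ± 8.57 against 65.3 ± 25.3 CPM (SD, n = 3), a log2 fold of -0.07 (SE 0.22, 95% interval -0.57 to 0.44, adjusted p = 0.942).

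Of the Hsph1 windows, the one shown here (chr5:149636337-149636586, minus strand) held 1 match of the 2 repeats 33 bases before the start.
Hsph1: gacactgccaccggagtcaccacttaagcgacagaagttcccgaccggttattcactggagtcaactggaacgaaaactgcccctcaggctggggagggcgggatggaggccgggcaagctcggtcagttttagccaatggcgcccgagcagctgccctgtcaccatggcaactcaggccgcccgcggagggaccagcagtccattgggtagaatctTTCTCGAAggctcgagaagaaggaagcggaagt
Past the start, beyond what is printed, it held the 3 repeats TTCTGGAAAGTTC at base 36. In the other Hsph1 window, with another start, the same letters lay 54 bases before the start and at base 15 past it. The 3-repeat letters GAANNTTCNNGAA or TTCNNGAANNTTC, of which each match also holds matches of 2 repeats, were in 3 of 8 members and in 0.603% of all windows (0.662% of genes). These members were Hsph1 and, through the same letters in a shared stretch, Hspd1 and Hspe1. No such letters lay in the windows of Dnajb1.

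Hspb1 (ENSMUSG00000004951) encodes HSP27, a small heat shock protein that holds unfolded proteins without ATP. It was the member of lowest level, at 1.32, 0.754 and 1.22 CPM in wildtype and 0.498, 0.645 and 1.89 CPM in knockout. As in Hspa1a and Dnajb1, knockout 1 and 2 were lowest and knockout 3 highest. These are 53, 33 and 39 reads in wildtype and 16, 17 and 108 in knockout, with a counting error of 25.0% in knockout 1. The mean was 1.10 ± 0.303 against 1.01 ± 0.767 CPM (SD, n = 3), a log2 fold of -0.02 (SE 0.47, 95% interval -1.09 to 1.05, edgeR adjusted p = 0.992). Its window (chr5:135887669-135887918, plus strand) held 2 matches of the 2 repeats, 117 and 97 bases before the start.
Hspb1: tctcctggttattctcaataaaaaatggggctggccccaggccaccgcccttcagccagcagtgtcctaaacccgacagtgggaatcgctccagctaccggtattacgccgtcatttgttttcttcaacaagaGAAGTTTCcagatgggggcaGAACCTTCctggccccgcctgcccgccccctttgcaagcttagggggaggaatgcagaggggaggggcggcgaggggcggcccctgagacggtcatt

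Hsp90aa1 (ENSMUSG00000021270) encodes the inducible cytosolic HSP90, which helps kinases and steroid receptors reach their active form. It varied less, at 155, 159 and 168 CPM in wildtype and 163, 167 and 203 CPM in knockout. Knockout 1 and 2 were inside the wildtype range and knockout 3 above it. The mean was 161 ± 6.46 against 178 ± 22.1 CPM (SD, n = 3), a log2 fold of 0.14 (SE 0.08, 95% interval -0.04 to 0.33, edgeR adjusted p = 0.571). Of 3 near-identical copies 2 were in the count table, with at most 34 reads together in any library.

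Hspa5 (ENSMUSG00000026864) encodes BiP, the HSP70 of the endoplasmic reticulum and the best known target of the unfolded protein response. It measured 287, 224 and 319 CPM in wildtype and 243, 288 and 422 CPM in knockout. Knockout 3 stood above the other 5 mice, and wildtype 2 below them. The mean was 277 ± 48.3 against 318 ± 93.1 CPM (SD, n = 3), a log2 fold of 0.20 (SE 0.19, 95% interval -0.23 to 0.64, edgeR adjusted p = 0.737). Its window (chr2:34771840-34772089, plus strand) held no heat shock element letters. It held the endoplasmic reticulum stress element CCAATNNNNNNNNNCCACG, searched on both strands, 65 bases before the start. Of all windows 0.119% held those letters (0.137% of genes), and of the members' windows that of Hspa5 alone.
Hspa5: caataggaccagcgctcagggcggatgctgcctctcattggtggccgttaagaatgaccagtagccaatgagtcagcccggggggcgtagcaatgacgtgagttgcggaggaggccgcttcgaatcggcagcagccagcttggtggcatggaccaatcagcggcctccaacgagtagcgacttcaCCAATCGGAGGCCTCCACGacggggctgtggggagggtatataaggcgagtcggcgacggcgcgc

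Hspd1 (ENSMUSG00000025980) and Hspe1 (ENSMUSG00000073676) encode HSP60 and HSP10, the chamber and the lid of the mitochondrial chaperonin, and are read in opposite directions from a shared promoter. Hspd1 measured 62.2, 58.5 and 66.7 CPM in wildtype and 66.2, 63.0 and 75.7 CPM in knockout. Hspe1 measured 18.6, 14.6 and 20.1 CPM in wildtype and 17.05, 16.8 and 22.5 CPM in knockout. In both, knockout 3 was highest and wildtype 2 lowest, and the other mice lay close together. The mean of Hspd1 was 62.4 ± 4.09 against 68.3 ± 6.59 CPM (SD, n = 3), a log2 fold of 0.13 (SE 0.08, 95% interval -0.04 to 0.31, edgeR adjusted p = 0.576). For Hspe1 it was 17.8 ± 2.85 against 18.8 ± 3.24 CPM (SD, n = 3), a log2 fold of 0.09 (SE 0.14, 95% interval -0.24 to 0.42, adjusted p = 0.854). The genes overlap by 112 bases on opposite strands, and whether counting used the strand is not given in the sources used here. Hspd1 has 2 windows. Of these, 1 shares 285 bases with that of Hspe1 and holds the same heat shock element, and the other shares 4 bases with it and holds none. The Hspe1 sequence is shown (chr1:55087898-55088147, plus strand), where the 3 repeats began 89 and 84 bases before its start.
Hspe1: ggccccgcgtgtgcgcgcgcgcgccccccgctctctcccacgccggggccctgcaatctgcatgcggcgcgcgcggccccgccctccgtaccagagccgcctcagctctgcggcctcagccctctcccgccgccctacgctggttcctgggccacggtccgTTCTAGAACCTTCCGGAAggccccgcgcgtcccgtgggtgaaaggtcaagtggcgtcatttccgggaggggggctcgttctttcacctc

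Hspa8 (ENSMUSG00000015656), the constitutive cytosolic HSP70, departed from the other members. It measured 150, 145 and 57.9 CPM in wildtype and 52.0, 144 and 66.1 CPM in knockout. Wildtype 1, wildtype 2 and knockout 2 were high, and wildtype 3, knockout 1 and knockout 3 were low, with no mouse between 66.1 and 144 CPM. The mean was 117 ± 51.7 against 87.2 ± 49.3 CPM (SD, n = 3), a log2 fold of -0.44 (SE 0.42, 95% interval -1.39 to 0.50, edgeR adjusted p = 0.734). Knockout 3, the highest mouse for the other 9 members, was at 0.563 times the wildtype mean. The reads behind these levels were 6007, 6335 and 1844 in wildtype and 1673, 3782 and 3770 in knockout, a counting error of at most 2.44%. Of 6 genes with a near-identical copy of the Hspa8 transcript (the longest aligned over 1947 bases at 96.5%), 0 were in the count table, so reads shared with them cannot be followed in these files.

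**Figure D2:**
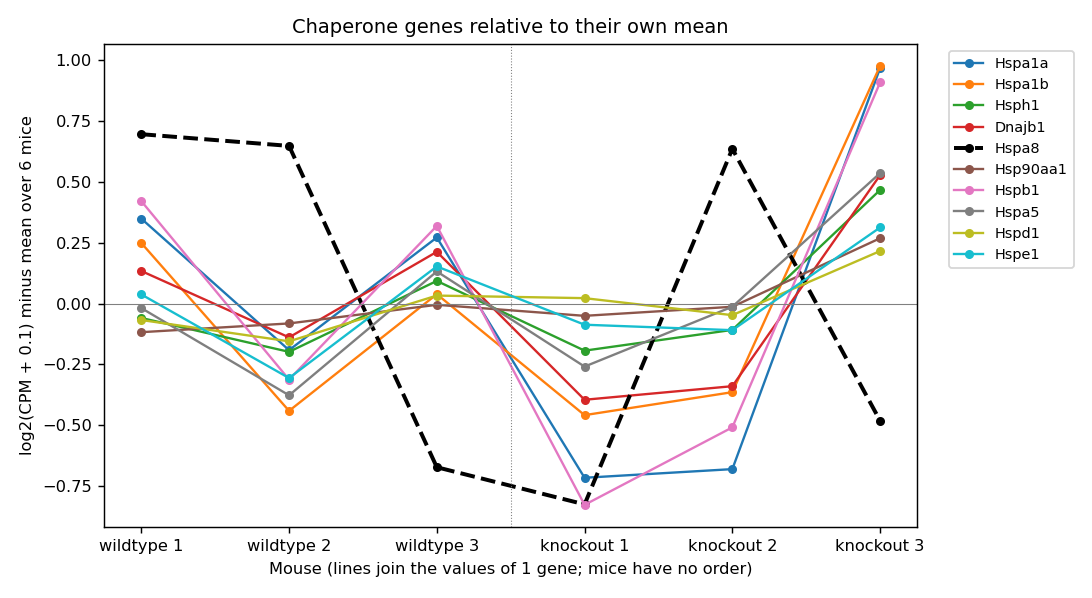
Level of each chaperone gene in each mouse relative to the gene's own mean, as log2(CPM + 0.1) minus its mean over the 6 mice (1 line per gene; the mice have no order). The 9 solid lines peak at knockout 3, and the dashed line of Hspa8 is high in wildtype 1, wildtype 2 and knockout 2.

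The spread within genotypes was wide for most members. It was taken as the SD of log2(CPM + 0.1) about each genotype's mean, pooled over the genotypes, and its median was 0.366 over the 10 members against 0.107 over all genes tested. Hspa8 had the widest at 0.77, followed by Hspa1a and Hspb1 at 0.71 and Hspa1b at 0.62. Dnajb1 stood at 0.39, Hspa5 at 0.34, Hsph1 at 0.27 and Hspe1 at 0.24, and Hsp90aa1 and Hspd1 had the smallest SD of the members, at 0.13 and 0.12. Among genes within 2-fold of the member's mean level, the share with a smaller SD was 99.9% for Hspa8, 99.7% for Hspa5, 99.5% for Dnajb1 and 99.4% for Hsph1. For Hspa1b, Hspa1a, Hspb1 and Hspe1 it was 99.2%, 98.9%, 95.8% and 95.8%, and for Hsp90aa1 and Hspd1 94.1% and 87.2%.

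The genotype difference was smaller than this spread for 8 of 10 members. Only for Hspd1 and Hsp90aa1, at 1.08 and 1.05 times the SD, was it larger, whereas it was larger for 39.5% of all genes tested. The median ratio of difference to SD was 0.402 over the members and 0.784 over all genes. Hspa1b had the lowest ratio, 0.165, and Hspa8, the member of largest difference, had 0.581. Since these differences are of mean logs, they can depart from the edgeR folds where 1 mouse is far from the others: for Hspa1a and Hspb1 they were each -0.29, beside edgeR folds of -0.02.

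**Figure D3:**
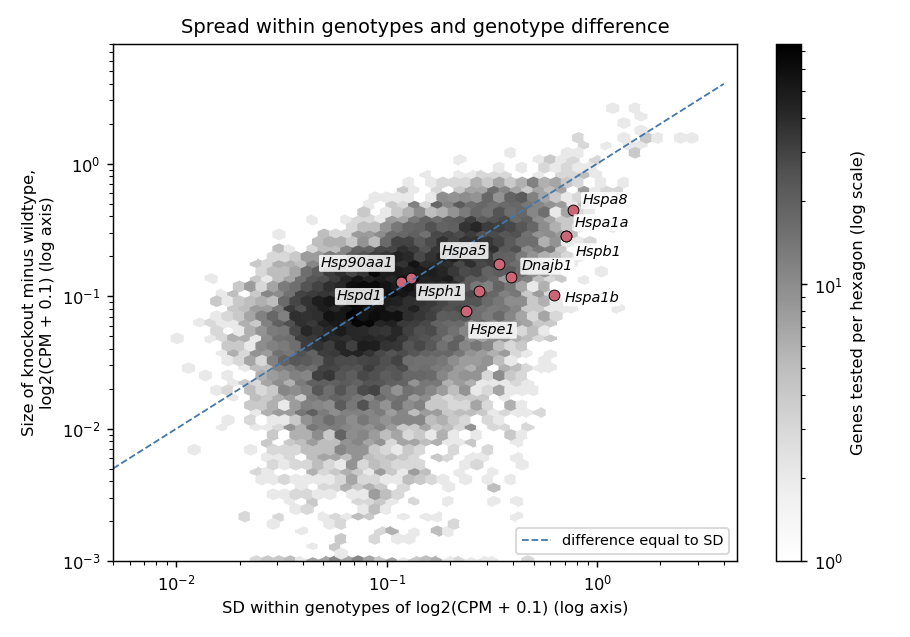
Size of the genotype difference (vertical, difference of mean log2(CPM + 0.1)) against the SD within genotypes (horizontal) on log axes, for the 10 chaperone genes (red points) and all 16432 genes tested (grey hexagons, darker with more genes; differences under 0.001 are drawn at 0.001). Of the red points 8 lie under the dashed line of equality, and Hspa1a and Hspb1 fall on nearly the same place.

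Spread was wider among knockout than among wildtype mice for 8 of 10 members, against 47.7% of all genes. The median SD of the members was 0.250 in wildtype and 0.463 in knockout, where all genes had 0.0986 and 0.0924. The highest knockout mouse was above the lowest by 3.80-fold for Hspb1, 3.29-fold for Hspa1a, 2.76-fold for Hspa8 and 2.73-fold for Hspa1b. Among wildtype mice the same ratios were 1.75, 1.47, 2.59 and 1.62. In all but Hspa8 the highest knockout mouse was knockout 3, while knockout 1 and 2 were at 2.92 and 3.00 CPM for Hspa1a and at 6.75 and 7.21 CPM for Hspa1b. Without knockout 3 the median spread within genotypes of the members was 0.215, in place of 0.366, and that of all genes tested was 0.103. Hspe1 was spread about alike in the genotypes, at 1.34-fold in knockout and 1.38-fold in wildtype.

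Relative to each gene's own mean, the mean profile of the 10 members was 0.16, -0.16 and 0.06 in wildtype 1, 2 and 3, and -0.38, -0.16 and 0.47 in knockout 1, 2 and 3 (log2). Wildtype 2 was the lowest wildtype mouse in 8 of 10 members, against 33.2% of all genes. Knockout 1 and 2 were both below every wildtype mouse in 3 of 10, Hspa1a, Dnajb1 and Hspb1, against 13.6% of all genes. The same 3 also had knockout 3 above every wildtype mouse, as had 1.41% of all genes. Distance from the mean of the other members without Hspa8, as the root mean square difference over the 6 mice, was smallest for Dnajb1 (0.084) and Hsph1 (0.129) and largest for Hspa8 (0.811). These counts describe 6 mice and genes that share libraries, so they are not independent of each other.

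The 8 genes outside the list and with a mean of at least 5 CPM whose profile lay nearest to that of the 10 members, by root mean square difference over the 6 libraries among 11453 genes, were Ccdc117 (0.084), Zim1 (0.0996), Atad2 (0.108), Calr (0.115), Cdr2 (0.117), Pcdhb5 (0.117), Serpinh1 (0.118) and Plod1 (0.119). Calr, the calcium-binding chaperone calreticulin, measured 383, 307 and 362 CPM in wildtype and 319, 354 and 470 CPM in knockout. Serpinh1, the collagen chaperone HSP47, measured 12.1, 12.3 and 12.8 CPM in wildtype and 9.95, 12.4 and 17.7 CPM in knockout. For Hspa8 the nearest gene with a name was Ccbe1, at 0.369, in a search added after its values had been seen.

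The signs of the folds depended on which mouse was left out. Without knockout 1, knockout 2 or wildtype 3, 9 of 10 members had a positive log2 fold, with medians of 0.23, 0.19 and 0.18. Knockout 3 was the highest mouse in 9 of 10, so leaving it out lowers the knockout mean of those members by construction. Without it 8 of 10 had a negative log2 fold, with a median of -0.19, in place of 4 of 10 and 0.11. Hspa1a then had a log2 fold of -0.88 (SE 0.20), Hspb1 of -0.94 (SE 0.35), Dnajb1 of -0.44 (SE 0.10) and Hspa1b of -0.39. Of these, Hspa1a, Dnajb1 and Hspb1 had an unadjusted p under 0.05, which makes 3 of 10 members lower at that p against 4.98% of 16474 genes, and 0 of 10 higher against 4.24%. The same 3 members did not overlap between genotypes, a share near the 27.4% of all genes that did not overlap with 5 mice. None passed after adjustment (edgeR adjusted p of 0.283, 0.283 and 0.493), where 17 genes in all (0.103%) did. Values of Hsph1, Hspa5 and Hspe1 became -0.10, -0.06 and -0.07, and those of Hsp90aa1 and Hspd1 stayed positive at 0.03 and 0.05.

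**Figure D4:**
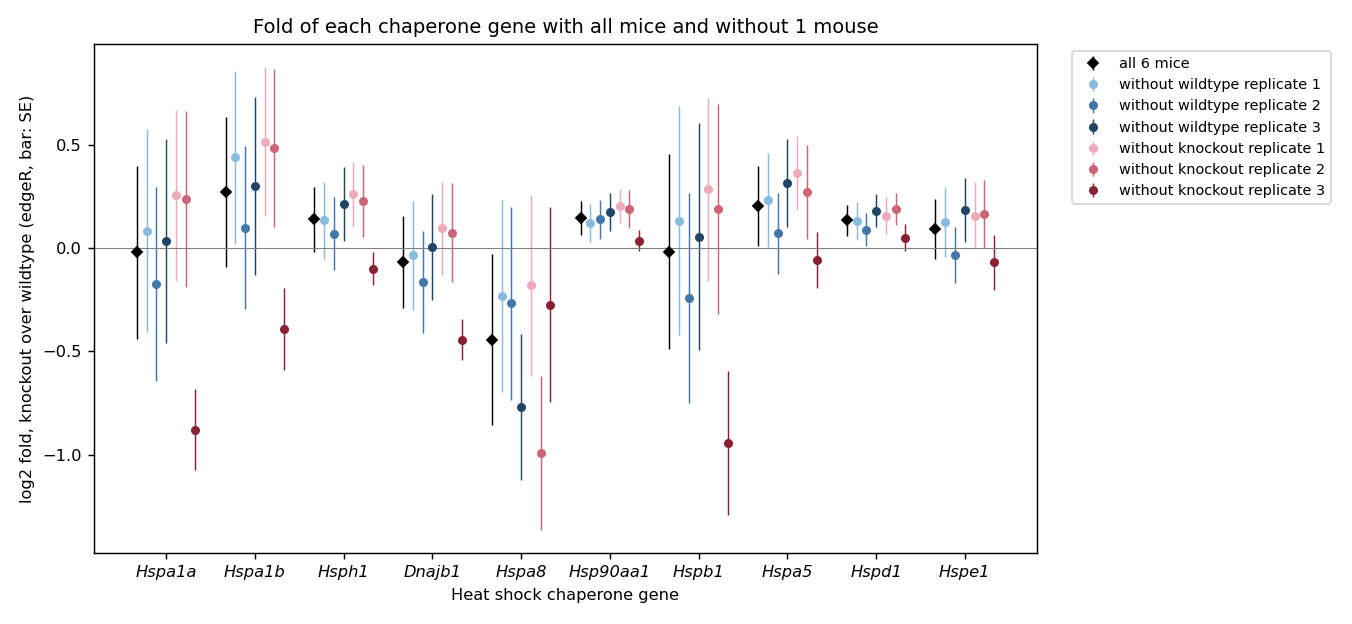
Log2 fold of knockout over wildtype for each chaperone gene, with all 6 mice (black diamonds) and without 1 mouse at a time (circles; bars: SE of edgeR's fit). The dark red circles, without knockout 3, are the lowest value of every gene but Hspa8.

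Values that move with knockout 3 were read beside these results. It was the deepest library, with 57246827 gene counts against 26439693 to 43588323 in the others. Markers of meningeal fibroblasts, cells of the brain's coverings, summed to 112 CPM in knockout 3, against 91.2 and 99.4 in the other knockout and 78.5 to 88.7 in wildtype mice, with none of the 6 markers at 0. That sum followed 1 marker, Dcn, at 63.8 CPM in knockout 3 and 41.9 to 49.2 CPM in the other mice. The other 5 were highest in knockout 1 or knockout 2, and the mean of the list over the genes' own means (log2) was 0.26 in knockout 2 and 0.22 in knockout 3. Of the other marker lists, neurons, dentate granule cells and endothelial cells had 1 member each highest in knockout 3 and astrocytes 2, while oligodendrocytes, microglia, mural cells, choroid plexus, blood and immediate early genes had 0. Immediate early genes, the first genes that active neurons transcribe, summed to 933 to 1127 CPM in wildtype. Their sums were 744, 742 and 752 CPM in knockout 1, 2 and 3, so knockout 3 did not stand apart in that sum. Of these 10 genes 9 did not overlap between genotypes and were lower in knockout, Fosb being the exception, against 8.34% of all genes. With edgeR 0 passed (smallest adjusted p 0.118). The part of depth or of meningeal cells in the high values of knockout 3 was not tested.

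Levels can be compared between genes per length, as CPM per kilobase of all exons. Hspa5 (mean over the 6 mice 70.3, range 53.0 to 99.9) and Hsph1 (58.4, 50.2 to 79.6) were the most abundant and their ranges overlapped. Hsp90aa1 followed at 43.0 (39.5 to 51.6). Hspd1 (24.7), Hspa8 (23.8) and Dnajb1 (21.0) overlapped in range, and Hspe1 lay at 12.4 (9.92 to 15.3), overlapping Hspa8 (from 12.1). The inducible Hspa1b, Hspa1a and Hspb1 were lowest, at 3.56 (2.41 to 6.58), 1.79 (0.986 to 3.24) and 1.02 (0.483 to 1.84). Reads placed at several sites were left out. Members with near-identical copies, such as Hspa1a, Hspa1b and Hspa8, may therefore be read too low by an unknown amount, which could change their place. The order also depends on the length used. Per kilobase of the longest coding transcript Hsph1 stood at 112 and Hspa5 at 81.0, Hspa8 at 42.8 and Hspd1 at 27.0, and Hspe1 at 23.6 and Dnajb1 at 22.4.

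Other genes of the pathway were read from 9 lists of 102 entries, of which 98 were tested. Of these 0 passed with edgeR (smallest adjusted p 0.334, Hspbp1), and at an unadjusted p under 0.05 9 were higher and 1 lower, against 5.05% and 5.58% of all genes. The genotypes did not overlap in 15.3% of them, near the 16.6% of all genes. Their median log2 fold was 0.07. Their median SD within genotypes was 0.0901, against 0.107 over all genes, which were not matched to them by level. By list the median SD was 0.253 for other small heat shock proteins, 0.161 for HSP90, 0.140 for the endoplasmic reticulum and 0.130 for the list labelled HSF1-induced. In the remaining lists it lay between 0.0551 and 0.0926. Knockout 3 was the highest mouse in 50 of 98 (51.0%), against 17.6% of all genes.

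That share was uneven over the lists. Knockout 3 was highest in 9 of 11 genes of HSP90 and its cochaperones, in 17 of 23 of the endoplasmic reticulum and in 8 of 8 subunits of TRiC, the cytosolic chaperonin. It was highest in 9 of 18 J-domain and exchange cochaperones and in 3 of 7 other HSP70 and HSP110 genes. In the mitochondrial list it was highest in 1 of 11, in other small heat shock proteins in 1 of 6 and in heat shock factors in 1 of 5. In the list labelled other genes known to be induced by HSF1 it was highest in 1 of 9. That list also holds Cirbp and Rbm3, which are induced by cold, so its label does not cover all 9 genes. Cirbp was lowest in knockout 3, at 27.7 CPM against 33.8 to 52.5 CPM in the other mice. Rbm3 was lowest there too, at 31.8 against 32.1 to 35.0 CPM. The mean height of knockout 3 over the genes' own means was 0.24 (log2) for the endoplasmic reticulum list, 0.22 for HSP90, 0.10 for TRiC and for J-domain cochaperones, and -0.01 for the mitochondrial list, where the 10 members had 0.47.

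**Figure D5:**
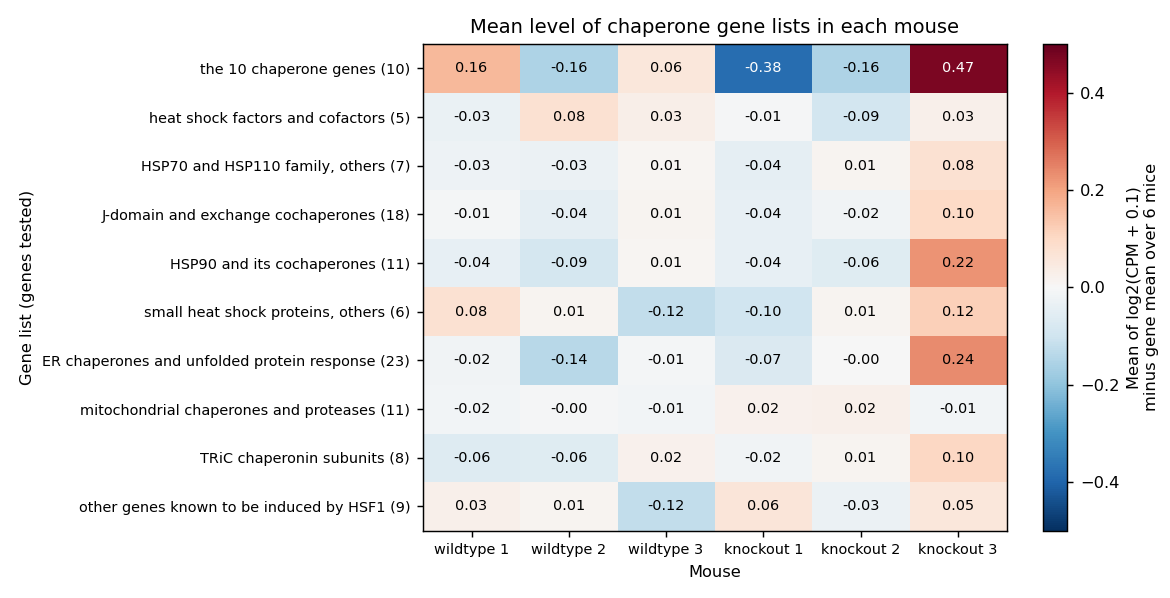
Mean over each gene list of log2(CPM + 0.1) minus the gene's mean over the 6 mice, by mouse (colour and printed value; number of genes tested in brackets). The 10 chaperone genes have the largest values, -0.38 in knockout 1 and 0.47 in knockout 3, and the endoplasmic reticulum and HSP90 lists reach 0.24 and 0.22 in knockout 3.

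Genes with the smallest p of each list are given as values, since none passed. Of the heat shock factors, log2 folds were -0.22 for Hsf4 and 0.05 for Hsf2, with 0.03 for the factor binding protein Hsbp1. Other HSP70 family genes were at 0.12 (Hspa4), -0.34 (Hspa1l) and 0.21 (Hspa12b). Hspbp1, an exchange factor that lowers HSP70 activity, was at -0.16 (SE 0.05), the J-domain partner Dnaja2 at 0.12 and the HSP70 interacting protein gene St13 at 0.15. HSP90 cochaperones stood at 0.14 (Ppid), 0.31 (Chordc1) and 0.08 (Sugt1). Chordc1 measured 70.5, 64.8 and 80.7 CPM in wildtype and 74.4, 79.5 and 112 CPM in knockout, again with knockout 3 above all others.

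Small heat shock protein genes were at 0.37 (Hspb8), 0.22 (Hspb11) and -0.57 (Hspb3). In the endoplasmic reticulum list Xbp1, a transcription factor of the unfolded protein response, was at 0.31 (SE 0.11, edgeR adjusted p = 0.403), the sensor kinase gene Eif2ak3 at 0.13 and the cochaperone gene Dnajc3 at 0.17. Xbp1 measured 63.0, 59.3 and 71.7 CPM in wildtype and 67.2, 79.3 and 93.0 CPM in knockout, so that knockout 2 and 3 were above every wildtype mouse. Mitochondrial genes were at 0.14 (Yme1l1), 0.08 (Hspa9) and -0.09 (Trap1), and TRiC subunits at 0.12 (Cct5), 0.07 (Cct2) and 0.08 (Cct8). Genes of the list labelled HSF1-induced were at 0.32 (Mt2), 0.15 (Nfkbia) and 0.15 (Mt1). Hsf1 itself, chosen after its values were seen, lay between 35.0 and 40.6 CPM in the 6 mice, with its highest value in wildtype 3.

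Hspa1a and Hspa1b were also set beside the 5 tested genes on either side of them on chromosome 17, in the order of GENCODE M21. Knockout 3 was highest in 0 of these 10 neighbours, against 17.6% of all genes, and the genotypes did not overlap in 3, against 16.6%. Their log2 folds ran from -0.65 for Slc44a4, a gene read under 1 CPM, to 0.25 for the RNA-binding Lsm2, and the smallest edgeR adjusted p was 0.427, for the lysosomal sialidase gene Neu1 (-0.17). Ehmt2, a histone methyltransferase gene, measured 214, 200.3 and 188 CPM in wildtype and 203, 188 and 182 CPM in knockout. Hspa1l, the HSP70 gene next to the pair, measured 2.24, 1.74 and 1.98 CPM in wildtype and 1.65, 1.52 and 1.54 CPM in knockout (edgeR adjusted p = 0.535). Values of the other named neighbours were -0.07 for Zbtb12, 0.01 for 1110038B12Rik, 0.04 for Vars and 0.09 for Vwa7.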

How the data were processed

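RNA of 6 hippocampi was sequenced on an Illumina instrument, per the labels. Each mouse has a table of unnormalized read counts by Ensembl gene, as deposited by the authors. The submitters' processing notes name build mm9, STAR 2.3.0e, HTSeq, SAMtools, FastQC 0.10.1 and DESeq2. The annotation was not given in the sources used here, nor was strand use. The 5 rows that name no gene, 38.0% to 40.3% of each file, were left out.

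Gene names, exons and 3' UTRs came from GENCODE M21 and matched 32897 of 37620 identifiers. Counts were made on mm9, so gene coordinates are not given, and those of promoters and microRNAs are GRCm38.p6. Folds and adjusted p come from edgeR 4.0.16 (R 4.3.3): filterByExpr, TMM, quasi-likelihood test on genotype, Benjamini-Hochberg over all genes tested, threshold 0.05. CPM per mouse used TMM library sizes, with 0.1 added on the log2 scale. The code was tested on simulated data.

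Near-identical copies are transcripts aligned at 95% identity or more over at least 300 bases. Litters differed between all mice, so a replicate number joins no mice. The p-values set the genotype difference against the spread among these mice, and the spread itself was not tested. Members and lists were chosen with earlier results of these data known. Named genes were the members, Mir17hg, the 3 genes of smallest p per pathway list, the 8 genes of most similar profile, and the tested neighbours of Hspa1a and Hspa1b, without predicted genes. Outside this plan, Prox1, Dcn, Fosb, Cirbp, Rbm3, Hsf1 and Ccbe1 were named with their values in view. Alternatives were DESeq2 1.42.0, its size factors, limma-voom (limma 3.58.1), 2 other filters, a replicate block, the Hspa1 pair summed, and leaving out each mouse. No set test was run.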

Additional observations from a re-analysis of the deposited data

How the results depend on the processing

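No member and no other pathway gene was called by edgeR, DESeq2 or limma-voom in any of the settings run. Over all genes the number called was 0 as reported, 62 without a filter beyond 1 read, 163 with DESeq2, and 0 to 17 with 1 mouse left out: 2 without wildtype 1 or without knockout 1, 16 without wildtype 2 and 17 without knockout 3. DESeq2 gave Hspb1 no adjusted p. Members whose genotypes do not overlap numbered 0 to 3 with 1 mouse left out, 3 without wildtype 3 (against 30.0% of all genes) and 3 without knockout 3 (against 27.4%). The median SD of the members was 0.215 to 0.420, lowest without knockout 3. Log2 folds that turned belonged to members that did not pass. With 1 mouse left out they ran from -0.88 to 0.25 for Hspa1a, -0.39 to 0.51 for Hspa1b, -0.10 to 0.26 for Hsph1, -0.44 to 0.095 for Dnajb1, -0.94 to 0.28 for Hspb1, -0.059 to 0.36 for Hspa5 and -0.070 to 0.18 for Hspe1. Summed with Hspa1b, Hspa1a was 0.16. The folds of Hspa8 (-0.99 to -0.18), Hsp90aa1 (0.03 to 0.20) and Hspd1 (0.05 to 0.19) kept their sign. The replicate block called 0 genes and 0 members, with Hspd1 at 0.13 (unadjusted p = 0.0293 with edgeR) and Hsp90aa1 at 0.14 (0.0443). These are 2 of 10 members higher at an unadjusted p under 0.05, where 787 of 16432 genes were. Without knockout 1, 1 member was higher at that p with edgeR (849 of 16918 genes). Without knockout 2, 1 was higher and 1 lower (501 and 573 of 16874 genes). With any 1 wildtype mouse left out, 0 members were under it. Deviations of mice of the same number correlated across genes at -0.10, -0.02 and -0.14, none above 0.1, so no pairing is taken. The cause of these changes was not tested. Depth limits Hspb1 and Hspa1a, read in under 100 reads in knockout 1 and 2.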
